A study of Mus musculus with 17 samples.

Results

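Growth factor signalling was followed through 17 single dermal cells in 5 genes: Igf1, which encodes insulin-like growth factor 1, the binding protein genes Igfbp6 and Igfbp7, and 2 genes of fibroblast growth factor (FGF) signalling, Fgfr1 and Fgf7. They were chosen by gene name, and all 5 had a row among the 8446 rows of the expression table. The cells came from the back skin of adult C57BL/6 mice of the genotype Prrx1-CreERT;Tomato, in which Cre recombinase is active only after tamoxifen and only where the Prrx1 promoter drives it, so that the red label follows Prrx1 activity at the time of the drug. Every mouse received 2 mg tamoxifen per 30 g body weight daily for 3 days, and all cells analysed here belong to that 1 group. The skin was digested with elastase and collagenase, and red cells were sorted and then picked singly. No animal is named for any cell, so the 17 cells were treated as 1 sample and are described without p-values.

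IGF1 is made in skin largely by dermal fibroblasts and acts through the IGF1 receptor, a tyrosine kinase that signals through PI3 kinase, AKT and mTOR to growth and survival. Secreted IGF binding proteins hold the ligand, lengthen its life and control its access to the receptor, and proteases release it. IGFBP6 prefers IGF2 over IGF1, and IGFBP7 binds IGFs weakly and is deposited in vessel walls and matrix. FGF7, also called keratinocyte growth factor, is a product of mesenchyme that acts mainly on the epithelial splice form of FGFR2, whereas FGFR1 is the main FGF receptor of fibroblasts, so Fgf7 and Fgfr1 are 2 genes of 1 family rather than a matched ligand and receptor.

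Values are on the deposited log scale, read here as log2(FPKM + 1), where FPKM is the fragment count scaled to transcript length and library size. Neither the log base nor the constant is described by the submitters in what was read here, and FPKM values below depend on that reading. The sorted values were nearly identical from cell to cell, so a value is in effect a rank within the cell, and sequencing depth is unknown. A gene is called detected at FPKM 1 or more. In every cell 4369 of the 8446 rows reached that value, so detection is in effect a fixed cut by rank. The labels name Tomato-positive skin cells and give no cell type. All 17 cells had 7 of 7 measured fibroblast markers detected, among them Col1a1, Col3a1 and Pdgfra, beside 13% of all rows. In a wider fibroblast list 13 of 17 measured genes were detected in all cells. Of 18 measured markers of other cell types none was detected in all cells. The pericyte, endothelial, keratinocyte and immune lists had no marker detected in as many as 9 cells. The adipocyte marker Fabp4 and the Schwann cell marker Mbp were each detected in 12 cells. Many markers that define those types, such as Pecam1, Krt14 and Ptprc, were not analysed here. Cell 16 stood apart somewhat, with a median Spearman correlation to the other cells of 0.443, against 0.460 to 0.528 for the rest. Low values were more alike within cells 1 to 5, 6 to 14 and 15 to 17, 3 sets derived from the values rather than from any label.

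Igfbp6 was the steady member. Its lowest value was 8.76 in cell 16, its median 10.40 and its highest 11.88 in cell 9, which correspond to 433, 1348 and 3767 FPKM. The mean was 10.26 (SD 0.78, n = 17 cells). It stood between the 13th and the 286th highest of the 8446 rows in every cell, with a median rank of 68. The gene (ENSMUSG00000023046) lies on chromosome 15 from 102144362 to 102149511 on the plus strand in GRCm38. All 17 cells passed FPKM 10. The 4 lowest values were in cells 16, 17, 5 and 15, so that all 3 cells of the last set were among them. Cells 15 to 17 spanned 8.76 to 9.71 and cells 6 to 14 spanned 9.79 to 11.88, so cells 15 and 10 nearly met. The share of all rows with such a gap between these sets was not computed, so it is not read as a trait of Igfbp6.

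Igf1 was the uneven member. Its lowest value was 1.14 in cell 8, its median 7.35 and its highest 12.17 in cell 4, which correspond to 1.21, 162 and 4592 FPKM. The mean was 6.97 (SD 3.22, n = 17 cells). In cell 4 it was the 9th highest of all rows and in cell 8 the 4250th. The gene (ENSMUSG00000020053) lies on chromosome 10 from 87858265 to 87937042 on the plus strand. The values spread over the whole scale: 6 cells lay between 9.14 and 12.17 (cells 1, 4, 5, 7, 9 and 12), 6 cells between 5.90 and 7.67, and 5 cells between 1.14 and 4.09 (cells 2, 3, 6, 8 and 15). It was detected in 17 cells at FPKM 1 and in 15 at FPKM 10, the exceptions being cells 8 and 15. High and low cells occurred together within each set of 5 or more cells, from 3.70 to 12.17 in cells 1 to 5 and from 1.14 to 10.21 in cells 6 to 14. In cell 4 the highest markers of other cell types were Kcnj8 at 4.98 and Fabp4 at 3.39. In cell 8 they were Cfd at 6.79 and Acta2 at 5.64. The part of cell type in the spread of Igf1 was not tested.

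Igfbp7 lay between these 2 in spread. Its lowest value was 2.33 in cell 15, its median 7.75 and its highest 11.81 in cell 13, with a mean of 7.58 (SD 2.37, n = 17 cells). These correspond to 4.04, 214 and 3595 FPKM. Cells 13 and 16, at 11.81 and 10.35, were the highest, and cells 15, 10 and 17, at 2.33, 4.45 and 4.68, the lowest. The medians of the 3 sets were 9.44 in cells 1 to 5, 7.22 in cells 6 to 14 and 4.68 in cells 15 to 17, with overlapping ranges. The gene (ENSMUSG00000036256) lies on chromosome 5 from 77349240 to 77408041 on the minus strand. Its last 85 bases, 77349240 to 77349324, overlap the end of Polr2b on the plus strand, a subunit gene of RNA polymerase II. The libraries were made with a kit that reads transcript 3' ends, and whether strand was used in counting is not given in the sources used here, so reads from this stretch cannot be assigned to either gene. Polr2b had a mean of 1.82 (SD 1.94) and was detected in 9 cells.

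Fgfr1 was detected in all 17 cells with a lowest value of 1.67 in cell 9, a median of 6.33 and a highest value of 7.75 in cell 8. Its mean was 5.71 (SD 1.73, n = 17 cells). Below the others stood cell 9 at 1.67 and cell 3 at 2.23, while the remaining 15 lay between 4.04 and 7.75. The gene (ENSMUSG00000031565) lies on chromosome 8 from 25513654 to 25575718 on the plus strand, and an antisense gene with no row, Gm16159, overlaps its exons.

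Fgf7 had the lowest mean of the 5 genes and was the one not detected in every cell. Its lowest value was 0.37 in cell 8, its median 3.72 and its highest 7.57 in cell 5, with a mean of 4.32 (SD 2.39, n = 17 cells). It was detected in 14 of 17 cells (exact Clopper-Pearson 95% interval 56.6% to 96.2%, counting error over cells only). The 3 cells under the threshold were cells 6, 8 and 10, at 0.60, 0.37 and 0.97. The gene (ENSMUSG00000027208) lies on chromosome 2 from 126034658 to 126091185 on the plus strand. At the top were cells 5, 7, 3 and 2, at 7.57, 7.51, 7.12 and 6.44, so that the 14 cells over the threshold spanned 2.60 to 7.57. Fgf7 had a median of 6.44 in cells 1 to 5, 3.51 in cells 6 to 14 and 3.17 in cells 15 to 17. Its range in cells 6 to 14 overlapped both others. Cells 1 to 5 spanned 3.72 to 7.57 and cells 15 to 17 spanned 2.91 to 3.63, so cells 1 and 17 nearly met. How many other rows are apart in these cells was not counted, so this is not read as a trait of Fgf7. Without cell 16 the means were 6.99 for Igf1, 10.36 for Igfbp6, 7.41 for Igfbp7, 5.58 for Fgfr1 and 4.41 for Fgf7.

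**Figure D1:**
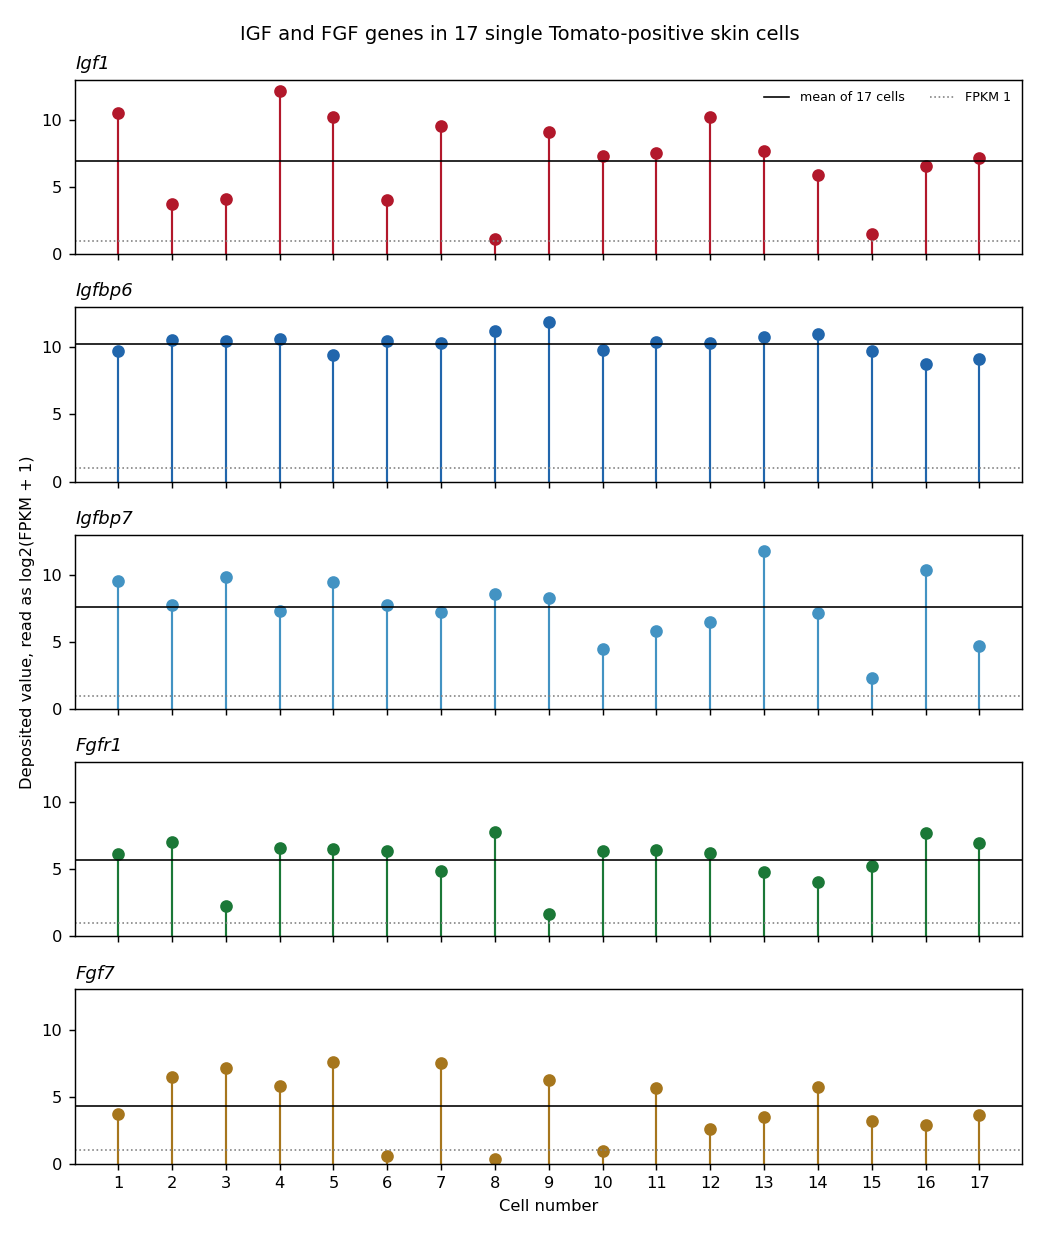
Deposited values, read as log2(FPKM + 1), of the 5 genes (vertical axes) in cells 1 to 17 (horizontal axis); each point is 1 cell, the solid line is the mean over 17 cells and the dotted line FPKM 1. Igfbp6 stays between 8.76 and 11.88, whereas Igf1 runs from 1.14 in cell 8 to 12.17 in cell 4 and Fgf7 is under FPKM 1 in cells 6, 8 and 10.

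Of the 5 genes 4 were detected in all 17 cells, beside 13% of all rows. With the threshold at FPKM 5 or at FPKM 10, Igfbp6 alone was detected in all cells, beside 7.2% and 5.65% of all rows. All 5 genes were detected in at least 9 cells at each of the 3 thresholds, beside 46.9%, 32.3% and 26.6% of all rows. The spread of each gene was set against genes of similar level, since low genes and high genes vary differently. Among 260 genes with a mean within 0.5 of that of Igf1, only 2 had a larger SD (0.769%), and their median SD was 1.69. For Igfbp7, 24 of 195 such genes had a larger SD (12.3%). Igfbp6 and Fgf7 were near the middle of their levels, with 48.2% of 56 genes and 51.4% of 591 genes more variable. Fgfr1 was steadier than most, with 71.0% of 400 genes more variable. These ranks describe 17 cells, and how much of the spread is technical was not tested.

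**Figure D2:**
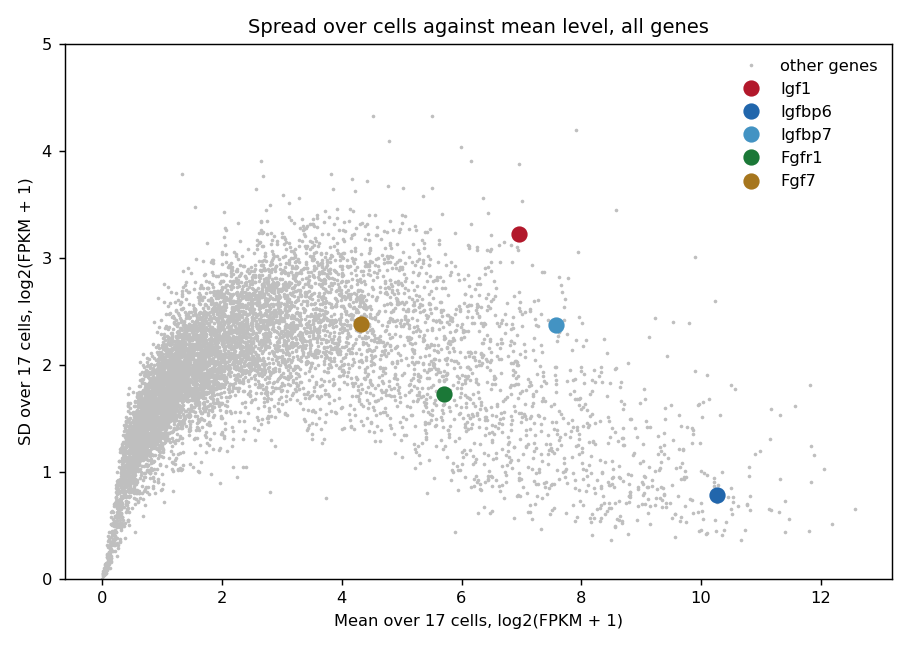
SD over 17 cells (vertical axis) against the mean over 17 cells (horizontal axis), both in log2(FPKM + 1), for every gene (grey) with the 5 genes coloured. Igf1, at a mean of 6.97 and an SD of 3.22, sits at the upper edge of genes of its level, while Igfbp6, at 10.26 and 0.78, sits in the middle of its own.

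By mean log2(FPKM + 1) the order was Igfbp6, Igfbp7, Igf1, Fgfr1 and Fgf7. Igfbp6 exceeded Igfbp7 in 14 of 17 cells, by 2.68 on average (SD of the within-cell difference 2.37), the exceptions being cells 5, 13 and 16. Igfbp6 exceeded Igf1 in 14 cells, by 3.30 (SD 3.39), and cells 1, 4 and 5 had more Igf1. For Igfbp6 minus Igf1, and for the next neighbours, the mean difference was smaller than the SD over cells. Igfbp7 exceeded Igf1 by 0.61 (SD 3.61) and in 8 cells only. Igf1 exceeded Fgfr1 by 1.26 (SD 3.74) in 12 cells, and Fgfr1 exceeded Fgf7 by 1.38 (SD 3.54) in 12 cells. FPKM divides by transcript length although a 3' end library gives about the same number of reads per molecule whatever its length. Igf1, with 9904 exonic bases, is longer than Igfbp6 with 1112 and Igfbp7 with 1209. These lengths join all annotated exons of a gene and need not equal the lengths by which FPKM was divided. Multiplication by them therefore reverses that division only roughly. With FPKM multiplied by length the difference Igfbp7 minus Igf1 became -2.31, with Igfbp7 higher in 6 cells. That of Igfbp6 minus Igf1 became 0.21, with Igfbp6 higher in 6 of 17 cells where it had been higher in 14. The mean of Fgfr1 became 7.25, above that of Igfbp7 at 6.19. The places of Igf1 and Fgfr1 relative to the binding proteins therefore depend on this choice.

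The wider IGF system was read from gene lists. Of 6 measured binding protein and related genes, 5 were detected in at least 9 cells, beside 46.9% of all rows. Igfbp5 had a mean of 6.29, Igfbp4 of 4.50 and Igfbp3 of 4.19, each detected in 15 cells. Igfbp5 was lowest in cell 9 (0.60) and highest in cell 2 (11.03), and Igfbp4 was lowest in cell 9 (0.52) and highest in cell 6 (8.26). Igfbp3, the main carrier of IGF1 in blood, had its highest values in cells 5 (10.63), 16 (9.96) and 4 (9.17) and its lowest in cell 8 (0.80). The RNA-binding protein gene Igf2bp2, which shares only the name, was detected in 7 cells.

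Igfbp6 was the highest of the 5 secreted binding proteins in 13 of 17 cells. Igfbp7 led in cells 13 and 16, Igfbp5 in cell 2 and Igfbp3 in cell 5. In FPKM, Igfbp6 made up 62.5% of the 5 at the median, from 15.5% in cell 16 to 92.4% in cell 9. The sum of the 5 varied far less than Igf1, from 876 to 5746 FPKM with a median of 2409. Igf1 was 7.05% of that sum at the median, 0.0431% in cell 8 and 191% in cell 4. These shares rest on FPKM, whose division by length lowers Igf1 relative to the shorter Igfbp6 and Igfbp7.

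The binding proteins did not vary as a block. Igfbp3 ran against Igfbp6 over the 17 cells (Spearman rho -0.569, Pearson r -0.654) and with Igf1 (rho 0.559, r 0.540), and Igfbp4 ran with Igfbp5 (rho 0.556, r 0.455). These 3 were picked out of 15 pairs of Igf1 and the 5 binding proteins after their values were seen. The other 12 pairs lay between rho -0.363 and 0.181. All of them share the same libraries and the same normalisation.

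**Figure D3:**
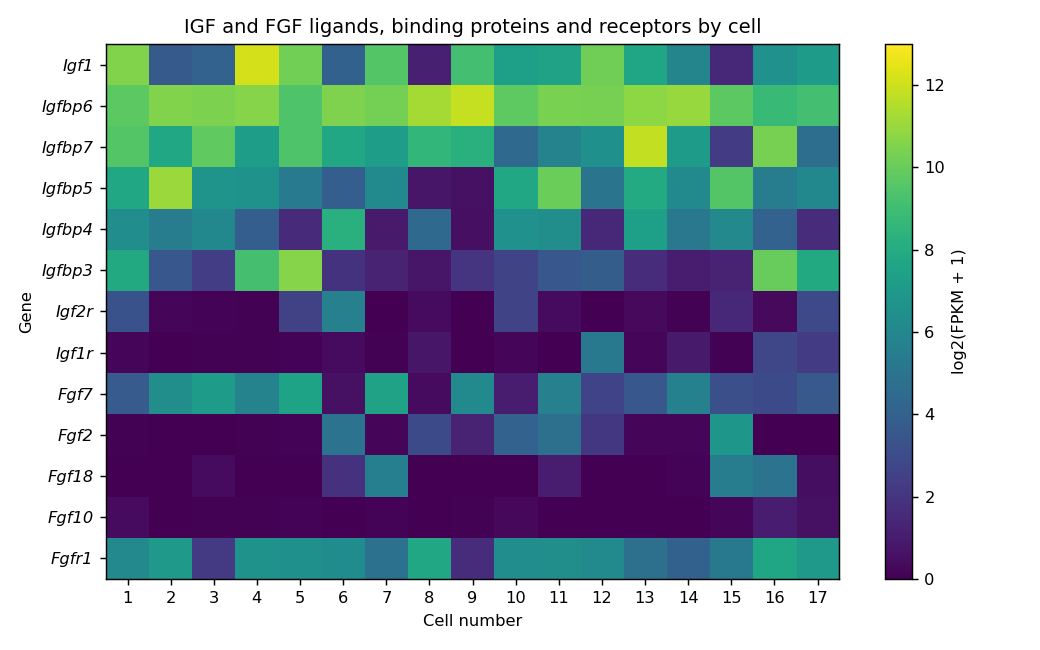
Deposited values in log2(FPKM + 1) (colour) of IGF and FGF ligands, binding proteins and receptors (rows) in cells 1 to 17 (columns). Igfbp6 is bright in every column, Igfbp3 is bright mainly in cells 1, 4, 5, 16 and 17, and the receptor genes Igf1r and Igf2r are dark in most.

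Receptor transcripts were sparse. Igf1r was detected in 3 cells, at 5.27 in cell 12, 2.78 in cell 16 and 2.32 in cell 17. Igf2r, which clears IGF2 and carries lysosomal enzymes, was detected in 6 cells with a highest value of 5.66 in cell 6. The insulin receptor gene and Igf2 were not analysed here. With depth unknown, a value under FPKM 1 does not show that a cell lacks the transcript.

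Proteases that act on IGF binding proteins, and the inhibitors of such proteases, were measured for 13 genes. Of these 9 were detected in all cells and 11 in at least 9, beside 13% and 46.9% of all rows. The serine protease genes Htra3 (mean 7.14) and Htra1 (mean 6.43, 16 cells), the matrix metalloproteinase gene Mmp2 (mean 8.22) and Adamts1 (mean 6.77) were among the higher ones. C1s1 (mean 6.67) and C1ra (mean 5.96) encode complement proteases, of which human C1s can cleave IGFBP5. The plasminogen activator genes Plat (mean 5.68) and Plau (mean 1.97) were detected in 17 and 9 cells. The inhibitor genes Timp1 (mean 8.14) and Serpine2 (mean 5.44) were detected in all cells. Pappa2, a protease of IGFBP3 and IGFBP5, was detected in 2 cells and Adam12 in 2.

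Of 23 measured insulin and IGF signalling genes below the receptor 11 were detected in at least 9 cells and 2 in all, beside 46.9% and 13% of all rows, so their detection was near that of an ordinary row. Those 2 were Eif4ebp1 (mean 7.23), the translation repressor that mTOR inactivates, and Rheb (mean 5.27), the GTPase that activates mTOR. Tsc2 (mean 3.50), which restrains Rheb, was detected in 16 cells. Grb10 (mean 3.68), Pik3r1 (mean 3.60) and the S6 kinase gene Rps6kb1 (mean 3.92) were detected in 14 each. The docking protein gene Irs2 (mean 2.47), Akt1 (mean 2.55) and the phosphatase gene Ptpn11 (mean 2.28) were detected in 13 each and Pik3r2 (mean 2.09) in 10, whereas Mtor itself was detected in 4.

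Among FGF ligands, 4 of 21 listed genes had a row. Besides Fgf7, Fgf2 was detected in 7 cells with a highest value of 6.87 in cell 15, Fgf18 in 5 cells and Fgf10 in 1. In the 3 cells with Fgf7 under FPKM 1, Fgf2 was detected, at 4.93 in cell 6, 2.93 in cell 8 and 4.09 in cell 10, a pattern noticed after the values were seen. Fgfr2, Fgfr3 and Fgfr4 were not analysed here, so the receptor of FGF7 is not covered.

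Of 10 measured receptors and co-receptors 6 were detected in at least 9 cells, beside 46.9% of all rows. Heparan sulfate proteoglycans hold FGFs on the cell surface or in the matrix. Of their genes Sdc2 (mean 6.40) and Sdc4 (mean 5.21) were detected in all cells, Gpc3 (mean 6.31) and Hspg2 (mean 2.81) in 16 and Gpc6 (mean 2.85) in 10. Sdc1, the syndecan of epithelia, was detected in none of the 17 cells, with a highest value of 0.53. The decoy receptor gene Fgfrl1 was detected in 2 cells and the adaptor gene Frs2 in 5.

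Feedback and response genes were divided. Those that many stimuli induce were detected in nearly every cell: Dusp1 (mean 8.05), Egr1 (mean 7.79) and Ier2 (mean 6.97) in 17 and Myc (mean 5.95) in 16. Dusp6, the phosphatase most closely tied to FGF signalling, was detected in 3 cells, Spry1 in 4 and Spry2 (mean 2.89), which damp receptor tyrosine kinases, in 11. The heparan sulfatase genes Sulf1 (mean 4.16) and Sulf2 (mean 3.99) were detected in 16 and 15 cells. Over the 7 lists 73 of 129 genes were measured, of which 42 (57.5%) were detected in at least 9 cells and 20 (27.4%) in all, beside 46.9% and 13% of all rows. The SDs over cells of these 42 genes ran from 0.78 for Igfbp6 and 0.80 for Mmp2 to 3.22 for Igf1 and 3.44 for Igfbp3.

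**Figure D4:**
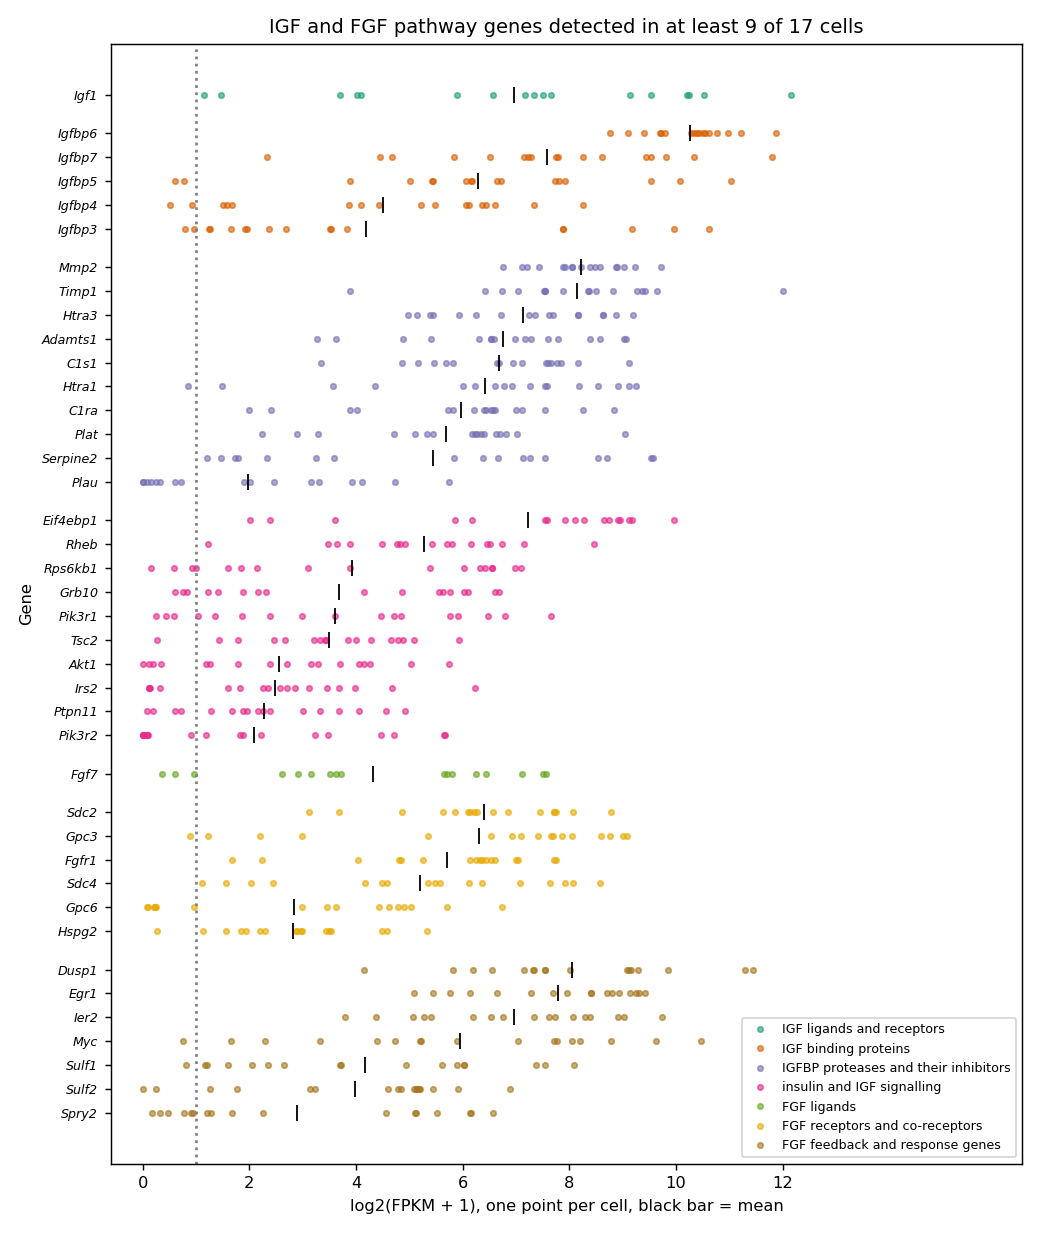
Values in log2(FPKM + 1) (horizontal axis) of the IGF and FGF pathway genes reported here that were detected in at least 9 of 17 cells, each point being 1 cell, the black bar the mean and the dotted line FPKM 1; colours give the lists. Igfbp6 lies farthest right with the lowest SD, 0.78, and the insulin and IGF signalling genes shown, other than Eif4ebp1 and Rheb, each have cells under FPKM 1.

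Over the 10 pairs of the 5 genes Spearman's rho lay between -0.306 and 0.375, and none reached 0.5 in size. Under other settings some did. Igfbp6 with Fgfr1 had a Pearson r of -0.526 (rho -0.299), but a rho of -0.032 without cells 9 and 16. Igfbp6 with Igfbp7 had a rho of 0.700 in cells 6 to 14 (0.181 over all cells), but -0.020 with set means subtracted. The highest was Igf1 with Fgf7 (rho 0.375, r 0.375). It was 0.617 in cells 6 to 14 and was 0.182 without cells 8 and 15, the 2 farthest from the median of Igf1. The lowest was Fgfr1 with Fgf7 (rho -0.306, r -0.469), which was -0.700 in cells 6 to 14, -0.551 with set means subtracted and -0.143 without cells 3 and 9. In those 2 cells Fgfr1 was lowest (2.23 and 1.67) while Fgf7 was at 7.12 and 6.24, and in cell 8 Fgfr1 was highest (7.75) while Fgf7 was lowest (0.37). Igf1 with its binding proteins gave rho -0.145 for Igfbp6 and 0.108 for Igfbp7.

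**Figure D5:**
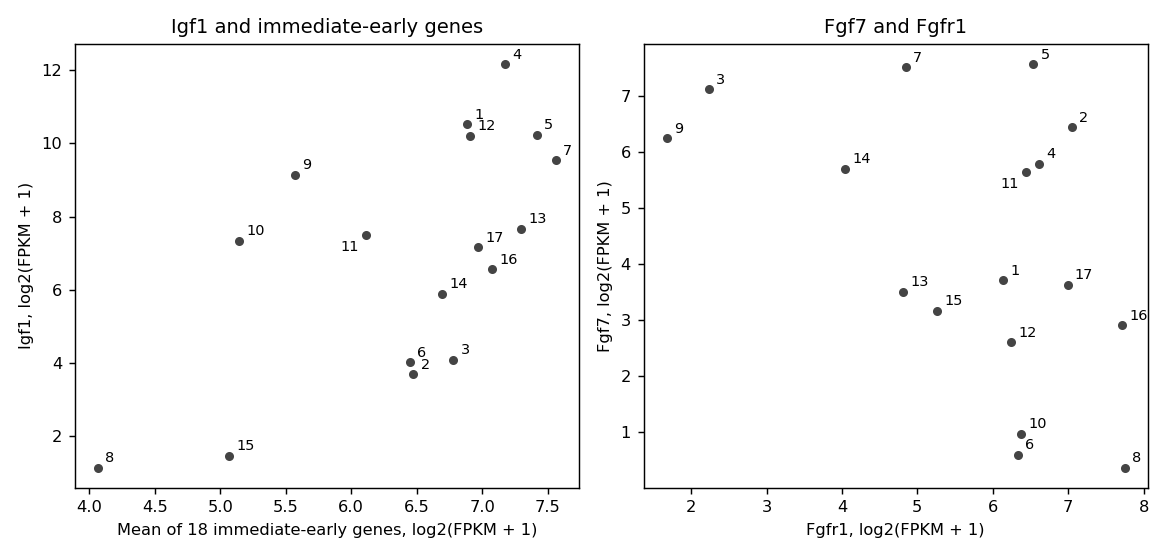
Left, Igf1 against the mean of 18 immediate-early genes; right, Fgf7 against Fgfr1, all in log2(FPKM + 1), with each of the 17 cells numbered. On the left cells 8 and 15 are at the lower left, and on the right cells 3 and 9 have high Fgf7 with low Fgfr1 while cell 8 has the reverse.

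The members were also set against 6 other gene lists, giving 30 relations, of which 4 reached 0.5 in size. Igf1 ran with the immediate-early genes, the fast-response genes that tissue digestion also induces (rho 0.627, r 0.621). Of 18 such genes 15 had a positive rho with Igf1, the highest being Fos (0.597), Fosb (0.544) and Jun (0.525), and Klf2 was lowest (-0.169). Of 3832 other genes 0.835% had as high a rho with the mean of this list. Leaving out single cells gave 0.553 to 0.697, and leaving out the 2 cells with the most extreme list means gave 0.457 (r 0.269), so part of the relation rests on them. Those were cells 8 and 15. Fgf7 had a rho of 0.471 with the same list (r 0.527), and 3.94% of the 3832 genes had as high a rho. The part of a response to digestion in either relation was not tested.

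Igfbp7 ran against the adventitia and fascia list (rho -0.556, r -0.614), with 11 of 13 genes negative. Fibronectin, Fn1 (-0.703), Anxa3 (-0.674) and the adventitial marker Pi16 (-0.603) were the lowest. It ran with complement genes (rho 0.529, r 0.425), led by the C1 inhibitor gene Serping1 (0.571) and C4b (0.539), while the complement regulator gene Cd55, which stands in both lists, ran against it (-0.480). Among genes outside each list, 1.04% lay as far from 0 in that direction with the adventitia and fascia mean, and 2.32% with the complement mean. With the means of the 3 sets subtracted, the first became -0.608 and the second 0.230. Igfbp7 is also a gene of vessels. Its rho was 0.277 with the summed pericyte and smooth muscle markers, whose sums ran from 0.15 in cell 7 to 11.44 in cell 4. It was 0.127 with the summed endothelial markers. The vessel values did not stand apart, since it was 0.314 with the 7 fibroblast markers and 0.241 with the keratinocyte markers. No share over other genes was computed for these values. In cell 13, where Igfbp7 peaked, the highest marker of another cell type was Fabp4 at 6.03. In cell 15, where it was lowest, that was again Fabp4, at 5.72.

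Fgfr1 ran with the adipogenic list (rho 0.581, r 0.629), 10 of 11 genes being positive and the preadipocyte factor Ebf2 highest (0.505). Ebf2 alone reached 0.5. Some signs rest on values mostly under FPKM 1: Pparg and Zfp423, both positive, were detected in 2 cells and 1 cell, and Dlk1, the negative gene, in 2. Of genes outside that list 3.28% had as high a rho. The rho of Fgfr1 with the 3 measured adipocyte markers, summed, was 0.431. That sum ran from 0.77 in cell 9 to 22.08 in cell 16, which also had high Fgfr1 (7.71). The adipocyte value did not stand apart. For Fgfr1 the rho was 0.453 with pericyte and smooth muscle, 0.365 with Schwann cell and melanocyte and 0.358 with endothelial markers. It was 0.263 with the immune marker, -0.100 with the 7 fibroblast markers and -0.103 with keratinocyte markers. The part of adipocyte transcripts in the relation of Fgfr1 with the adipogenic list was not tested. Igfbp6 had a rho of -0.475 with the adipogenic list (r -0.649) and of 0.375 with the collagens. With the summed Schwann cell and melanocyte markers Mbp, S100b and Mitf it was -0.669, and with the macrophage marker Csf1r -0.531. Both marker values were the largest in size among all members and marker lists, and no share over other genes was computed. S100b, Mitf and Csf1r were each detected in 5 of 17 cells, so most of their values were under FPKM 1. The rho of Igfbp6 with the number of rows above the lowest value, the remaining sign of library complexity, was 0.370. The parts of these markers and of complexity in the level of Igfbp6 were not tested.

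Genes with the most similar profile were named by rank among genes detected in at least 9 cells, 3850 in all. For an ordinary gene of this group the best partner had a rho of 0.792 (median), so values near that size are usual for a best partner. Igf1 was most like Gstm5, a glutathione transferase gene (0.826), Fxyd6, a regulator of the sodium pump (0.794), Dnajc30 (0.752), the transcriptional inhibitor Id2 (0.740) and Ccdc28b (0.737). It was most unlike the transcription factor gene Tcf12 (-0.801) and Efcab14 (-0.750). In cell 8 Igf1, Gstm5 (0.22) and Id2 (0.64) were each at their lowest and Tcf12 at its highest (6.99).

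Igfbp6 was most like the ATP synthase subunit gene Atp5j2 (0.836), the inner mitochondrial membrane gene Minos1 (0.723), Nenf (0.718), Rhog (0.701) and Mrpl30 (0.696), and most unlike the kinase gene Fes (-0.801) and Cmc4 (-0.740). Igfbp7 was most like the Golgi mannosidase gene Man2a1 (0.841), Txnip (0.755), the apolipoprotein gene Apod (0.748), Gabarapl1 (0.716) and its overlapping neighbour Polr2b (0.711), whose value is uncertain for the reason given above. It was most unlike Mdm2 (-0.738) and Rab6a (-0.737).

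Fgfr1 was most like Ptms (0.850), the small nucleolar RNA host gene Snhg8 (0.779), Flot2 (0.755), Adam9 (0.748) and Vezf1 (0.748), and most unlike Grpel1 (-0.824) and Commd10 (-0.794). Fgf7 had the weakest best partners, Dnpep (0.718), Eif3g (0.691), Cyb561d2 (0.684), Rbfox2 (0.681) and Trappc13 (0.676), and was most unlike Sbds (-0.797) and Herpud1 (-0.730). Of these 25 most similar genes 6 stayed among the 5 nearest of their member with Pearson's r, among them 3 partners of Igf1 and none of Igfbp6 or Fgfr1.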

How the data were processed

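One table holds 17 single cells. The submitters' processing notes name Cufflinks, TopHat2 and the build GRCm38, and per the labels' protocols the libraries were made with SMART-Seq v4 3' DE and Nextera XT. The deposited values are log2 values as read here, log2(FPKM + 1). The log and quantile steps are not described in the sources used here, but sorted values above 3 differed by at most 0.0165 between cells. Identifiers of 8431 of 8446 rows (99.8%) matched GENCODE M21, which gave coordinates and exonic lengths. Where a name had more than 1 row, the one with the largest mean was kept.

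The 5 members and all lists were chosen with earlier results of these data known. Computed here were levels, detection at FPKM 1 (also 5 and 10), within-cell differences, and Spearman and Pearson correlations over cells, with no test because no animal is named. Genes were named by rule: the members, list genes detected in at least 9 cells or in none, the 5 most and 2 least similar genes of each member (ribosomal protein genes and gene models left out), and markers in extreme cells. Some list genes enter the counts but are not reported here by name. Other names were chosen after their values were seen. The ranking by similarity was run on shuffled values with close partners planted, which checks the code and not the names given here. Alternatives covered threshold, added constant (0.1), length, scaling, correlation measure and omission of cells. The tools were scipy 1.17.1, pandas 2.3.3 and numpy 2.4.6 in Python 3.11.15, with matplotlib 3.10.9 for figures.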

Additional observations from a re-analysis of the deposited data

How the results depend on the processing

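Of the mean levels, only that of Igfbp6 moved by more than its SD over cells, to 8.71, with multiplication by length. The same step took Igf1 to 8.50, Fgfr1 to 7.25 and Igfbp7 to 6.19, shifts that stayed within their larger SDs. Fgf7 remained at 4.32. Without single cells the means ranged over 6.64 to 7.33 for Igf1, 10.16 to 10.36 for Igfbp6, 7.31 to 7.91 for Igfbp7, 5.58 to 5.96 for Fgfr1 and 4.12 to 4.57 for Fgf7. The difference Igfbp7 minus Igf1 reversed to -2.31 with multiplication by length and stayed between 0.19 and 0.96 without single cells. There Igfbp6 minus Igfbp7 ranged over 2.39 to 2.95, Igfbp6 minus Igf1 over 2.87 to 3.60, Igf1 minus Fgfr1 over 0.87 to 1.75 and Fgfr1 minus Fgf7 over 1.01 to 1.78. Members detected in all cells numbered 1 at FPKM 5, 1 at FPKM 10 and 5 above the lowest value. Pathway genes detected in at least 9 cells numbered 37 at FPKM 5, 30 at FPKM 10 and 69 above the lowest value. Member pairs with a correlation of 0.5 or more in size numbered 0 of 10 by Spearman, 1 by Pearson, 3 in cells 6 to 14 and 1 with set means subtracted; without single cells they ranged from 0 to 1, being 1 without cell 2 and without cell 8. Member and list relations of that size numbered 4 of 30, and 3 to 6 without single cells. Of the 25 most similar genes 6 were kept by Pearson, 10 with detection in 1 cell, 6 with detection in all 17 cells, 7 with set means subtracted and 11 to 18 without single cells. These names are therefore unstable, and the cause was not tested. The omission of the 2 cells farthest from a median was chosen after the data were seen. No paired analysis was possible because all cells form 1 group. Since the depth is unknown, values under FPKM 1 carry no limit of detection.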
